A study of Mus musculus with 20 samples.

Results

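The genes of the proteasome were followed through hippocampus and cortex of WT and Ube3aOE mice. They were taken by symbol, as the genes named Psma, Psmb, Psmc, Psmd, Psme, Psmf or Psmg with a number, which gave 48 of the 47729 genes in the count tables: 8 Psma, 11 Psmb, 6 Psmc, 14 Psmd, 4 Psme, 1 Psmf and 4 Psmg genes. The rule itself uses no measured value, though it was chosen with earlier results of these data known. Stranded mRNA libraries were made from both tissues of 10 C57Bl/6J mice at P7 (postnatal day 7), 5 WT and 5 Ube3aOE, so that each of the 4 groups holds 5 libraries. Ube3aOE mice carry a bacterial artificial chromosome with the mouse Ube3a gene and its flanking sequence in addition to their own Ube3a, so the transgene comes with the gene's own flanking regulatory sequence. The labels number the WT mice 1 to 5 and the Ube3aOE mice 6 to 10, and do not name the transgenic line. The comparisons ask whether overexpression of a ubiquitin ligase goes with a different dose of proteasome mRNA, and whether that dose differs between the 2 tissues.

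The proteasome is the protease that takes apart proteins marked with ubiquitin. Its barrel, the 20S core, is built of rings of alpha subunits (Psma genes), which gate the entrance, around rings of beta subunits (Psmb genes), of which Psmb5, Psmb6 and Psmb7 encode the catalytic ones. The 19S cap recognizes and unfolds substrates with a ring of ATPases (Psmc genes) and a set of non-ATPase subunits (Psmd genes), among them ubiquitin receptors and a deubiquitinase. Interferon induces the alternative catalytic subunits of the immunoproteasome, Psmb8, Psmb9 and Psmb10, which replace Psmb5, Psmb6 and Psmb7. Psma8 and Psmb11 encode alternative core subunits of testis and thymus. Psme1 and Psme2 form the interferon-inducible activator of the core, Psme3 a nuclear one and Psme4 the large activator PA200, while Psmf1 encodes the inhibitor PI31 and the Psmg genes encode chaperones of core assembly. UBE3A is a ubiquitin ligase, which marks proteins for this machine.

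The upstream sequences of 3 members are shown as examples, and each of them holds a motif that was searched for. Any link of these motifs to the members' levels was not tested. RefSeq promoters (build GRCm38.p6) matched 40 of the 48 symbols, and the 250 bases before the annotated start were searched on both strands. Capitals mark CCAAT, the CCAAT box, in Psma3, CTTCCGG, the reverse complement of the ETS core CCGGAAG, in Psmd2, CGCACGCGC, the reverse complement of a match to the nuclear respiratory factor 1 motif GCGCNTGCG, in Psma3, and TGACGGAGC, a match to the antioxidant response core TGACNNNGC, in Psmb6.

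Psma3, chr12:70974373-70974622, plus strand: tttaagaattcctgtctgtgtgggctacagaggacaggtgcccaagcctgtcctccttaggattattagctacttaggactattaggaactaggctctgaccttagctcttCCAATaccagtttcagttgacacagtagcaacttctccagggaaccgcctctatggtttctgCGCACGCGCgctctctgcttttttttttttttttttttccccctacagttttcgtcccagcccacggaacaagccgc
Psmb6, chr11:70525107-70525356, plus strand: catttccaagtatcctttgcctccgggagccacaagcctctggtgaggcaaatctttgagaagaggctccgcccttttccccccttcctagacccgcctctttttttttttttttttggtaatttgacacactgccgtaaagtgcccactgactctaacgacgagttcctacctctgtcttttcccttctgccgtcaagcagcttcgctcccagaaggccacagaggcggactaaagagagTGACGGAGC
Psmd2, chr16:20651402-20651651, plus strand: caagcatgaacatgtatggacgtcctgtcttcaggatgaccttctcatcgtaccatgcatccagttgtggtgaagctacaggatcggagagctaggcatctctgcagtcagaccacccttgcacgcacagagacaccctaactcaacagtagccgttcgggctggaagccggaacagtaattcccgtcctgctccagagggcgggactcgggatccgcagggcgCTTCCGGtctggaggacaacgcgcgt

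The ETS core was found upstream of 12 of the 40 matched members (30%), among them Psmc1, Psmc2, Psmc6, Psmd2 and Psmd11, against 7.82% of 26994 genes with a promoter and 14.0% of the 11385 of these genes that were tested for a difference between the regions. The nuclear respiratory factor 1 motif was found in 6 members (15%), among them Psma2, Psma3 and Psma4, against 5.87% of all genes and 11.6% of the tested genes. The antioxidant response core, the motif bound by the transcription factors that Nfe2l1 and Nfe2l2 encode, was found in 5 members (12.5%: Psmb5, Psmb6, Psmc6, Psmd9 and Psmd12), against 11.5% of all genes and 14.0% of the tested genes. CCAAT was found in 14 members (35%), in 37.5% of all genes and in 39.9% of the tested genes, the interferon response letters GAAANNGAA in 3 members (7.5%: Psmb3, Psmd4 and Psmd9), in 8.17% and in 7.32%, and TATAAA in 4 members (10%), in 14.3% and in 8.11%. GAAANNGAA was not among the 250 bases of any of the inducible genes Psmb8, Psmb9 and Psmb10. These are counts of letters and were not tested.

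Each library held 14191093 to 16752326 reads counted on genes. Ube3a itself checked the genotype labels: it was at 64.7 ± 8.21 CPM (counts scaled to the library's TMM-corrected total, mean ± SD, n = 5) in WT and 162 ± 24.9 CPM in Ube3aOE hippocampus, and at 61.1 ± 5.71 and 152 ± 27.2 CPM in cortex, a log2 difference of 1.32 and 1.31 (edgeR adjusted P = 0.000441 and 0.000822). The tissue labels were checked with marker genes: 6 of 7 hippocampus markers were higher and 5 of 7 neocortex markers lower in hippocampus, and none of them was at 0. Several hippocampus libraries stood apart in markers of neighboring tissue. Summed choroid plexus markers reached 1959 CPM in Ube3aOE mouse 7 and 349 CPM in mouse 9, against 8.57 to 33.2 CPM in the other hippocampus libraries. Thalamus and habenula markers reached 279 CPM in WT mouse 4, 363 CPM in mouse 7 and 697 CPM in mouse 10 (21.5 to 79.9 CPM in the others), striatum markers 242 CPM in mouse 9 (11.7 to 34.8 CPM), and neocortex markers 1008 CPM in WT mouse 2 and 585 CPM in mouse 9 (272 to 359 CPM). In both libraries of WT mice 3 and 5, Xist and 4 Y-linked genes went against the labelled sex.

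All 48 genes had reads, and the alternative core genes, Psmb10 apart, had few. The 14 constitutive core genes, Psma1 to Psma7 and Psmb1 to Psmb7, had mean levels between 55.5 CPM (Psmb5) and 179 CPM (Psmb4) over the 20 libraries. The 6 ATPase genes were at 117 CPM (Psmc6) to 181 CPM (Psmc3), and the 14 non-ATPase genes at 15.3 CPM (Psmd10) to 310 CPM (Psmd2, the scaffold subunit that docks ubiquitin shuttle factors). Psmd10 (gankyrin) encodes a chaperone of cap assembly rather than a subunit of the finished cap, as do Psmd5 at 63.8 CPM and Psmd9 at 40.7 CPM. Below, all Psmc and Psmd genes are counted as cap genes, these chaperone genes included. The chaperones of core assembly were at 19.6 (Psmg1), 21.8 (Psmg2), 11.4 (Psmg3) and 11.9 CPM (Psmg4). The activator genes were at 69.4 (Psme1), 23.8 (Psme2), 109 (Psme3) and 68.2 CPM (Psme4), and the inhibitor Psmf1 at 59.6 CPM. CPM compares a gene between libraries, and because long transcripts give more reads it does not rank genes.

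**Figure D1:**
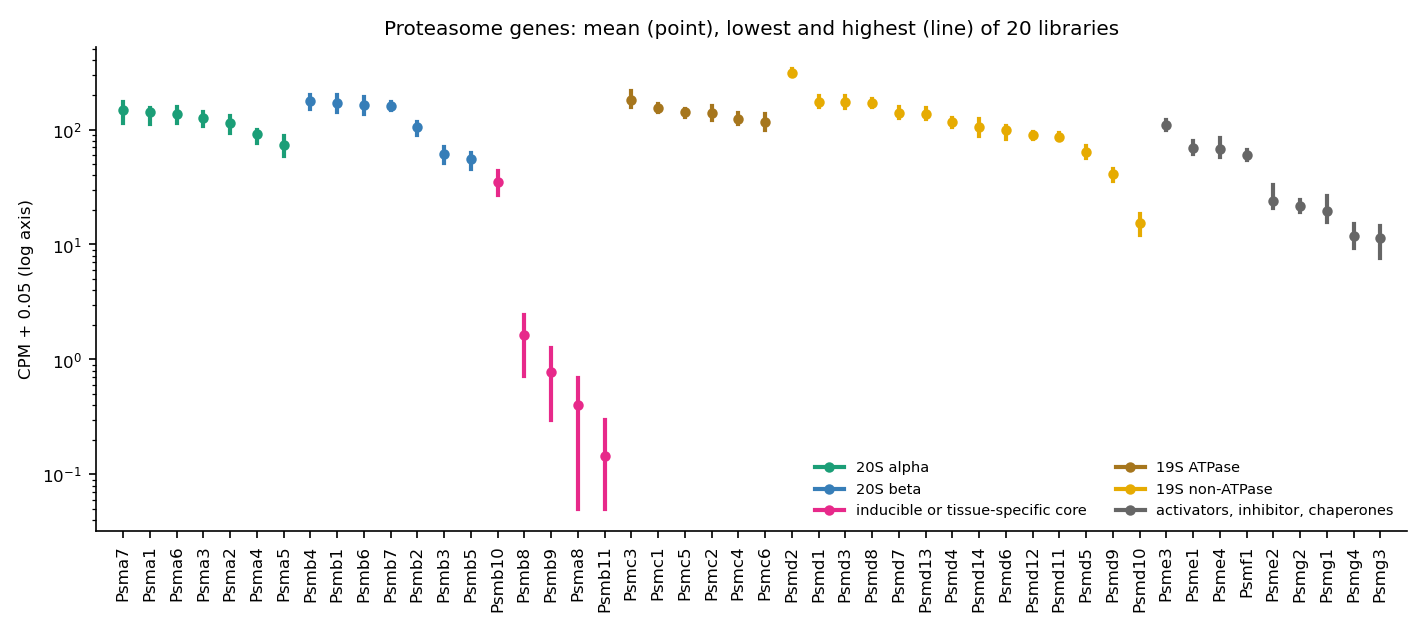
Mean CPM of each of the 48 proteasome genes (points) with the lowest and highest of the 20 libraries (lines), on a log axis after adding 0.05, by class. The 4 inducible or tissue-specific genes Psmb8, Psmb9, Psma8 and Psmb11 lie below 3 CPM in every library.

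Genes were therefore ranked per kilobase of transcript. Per kb of the median annotated transcript, the highest members were Psmd2 (470 CPM per kb), Psmb4 (275), Psmd1 (251), Psmc1 (244) and Psmb6 (224). This order depended on the transcript chosen: per kb of the longest annotated transcript, Psmb6 (171), Psmb4 (151), Psma6 (131), Psmb2 (122) and Psma1 (118) led, Psmd2 was at 103 and Psmd1 at 55.7 CPM per kb. Psmb4 and Psmb6, a structural and a catalytic subunit of the beta ring, were among the 5 highest on both scales. The 14 constitutive core genes had a median of 127 CPM per kb on the median transcript (53.8 for Psma2 to 275 for Psmb4) and of 81.6 on the longest (39.4 for Psma2 to 171 for Psmb6), so genes whose products are built into the core in equal number differed 5.11-fold and 4.33-fold in mRNA per kb. The 5 lowest members were Psmb11 (0.0394 CPM per kb), Psma8 (0.341), Psmb9 (0.930), Psmb8 (1.29) and Psmd10 (10.9) on the median transcript; on the longest, Psmg3 (4.75) took the place of Psmd10. Reads that align to more than 1 place were not counted, and Psmb5 and Psma5 share 54.1% and 49.96% of their stretches of 50 bases with other annotated genes (Gm3375 and Psmb5-ps for Psmb5, Gm8394 and Gm12989 for Psma5), so their values are uncertain. Psme2 shares 28.3%, with Psme2b and Gm7928, and its values are uncertain too. Of the 48 members, 20 shared no such stretch and 32 shared under 5%.

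Psma8 and Psmb11 did not pass the filter on low counts and were not tested. Psma8, the testis subunit, had 0 to 11 reads per library (0 to 0.645 CPM), and in WT hippocampus the 5 libraries were at 0.645, 0.0, 0.493, 0.517 and 0.462 CPM (mice 1 to 5). Psmb11, the thymus subunit, had 0 to 4 reads per library and was at 0 in 4 libraries. A count of 0 allows up to 3 reads, that is 0.172 to 0.224 CPM depending on the library, and most Psmb11 values lie under that limit.

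Most of the remaining 46 members varied little between mice. After the mean of each group was taken out, the 44 members at 10 CPM or more had a median SD of 0.0806 on the log2 scale. The 10081 genes at 10 CPM or more had 0.127. These genes were not matched to the members for level, and most members lie well above 10 CPM, so level may account for part of the difference, which was not tested. The SD was 0.0427 for Psmd11, a lid subunit, lower than in all but 0.288% of these genes, 0.0463 for Psmd2 and 0.0488 for Psmc4. The largest SDs of the 44 were those of the chaperone genes Psmg4 (0.188), Psmg1 (0.163) and Psmg3 (0.157), all of them under 20 CPM on average. They were higher than in 79.2%, 70.6% and 67.8% of these genes. Part of the variation was shared, more so among core genes than among cap genes. Across the 10 mice, pairs of constitutive core genes had a median Pearson r of 0.689 in hippocampus (91 pairs) and 0.549 in cortex. Pairs of cap genes had 0.366 and 0.419 (190 pairs), pairs of a core and a cap gene 0.459 and 0.439 (280 pairs), and all pairs of genes at 10 CPM or more 0.0052 and 0.004. These correlations are a description over 10 mice whose libraries share a normalization, and the points of the 2 genotypes were centered separately.

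Between the tissues, 3 members were higher and 13 lower in hippocampus at an adjusted P under 0.05 (edgeR, 46 tested), where 25.3% of the 15661 genes tested were called higher, 25.6% lower and 50.9% either way. Thus 16 of 46 members were called (34.8%). The members' differences ran from -0.39 to 0.48 on the log2 scale, with a median of -0.08 against -0.01 for all genes and -0.03 for genes at 10 CPM or more. With the mouse as a block, which uses that each mouse gave both tissues, 4 of the 46 members were higher and 21 lower. Of all genes 27.4% were higher and 28.4% lower, so the members' calls leaned to the lower side where those of all genes were nearly even. Genes at 10 CPM or more leaned lower as well: without the block, 2303 of 10081 were called higher and 3122 lower, and 56.3% were below 0. Of the 44 members at that level, 2 were called higher and 13 lower, and 72.7% were below 0. Whether the shares differ was not tested. The split depended on the scaling: with library totals in place of TMM factors it was 8 higher and 5 lower, and with upper-quartile factors 4 and 8. Without Ube3aOE mouse 6 it was 1 higher, without Ube3aOE mouse 9 it was 8 lower, and without mice 2, 4, 7, 9 and 10, whose hippocampus libraries held the markers of neighboring tissue named above, 0 were higher and 3 lower. That last fit holds fewer mice and so has less power. For the fits with other scalings or with mice left out, the share of all genes called is not given here. Their counts therefore have no background to be read against.

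**Figure D2:**
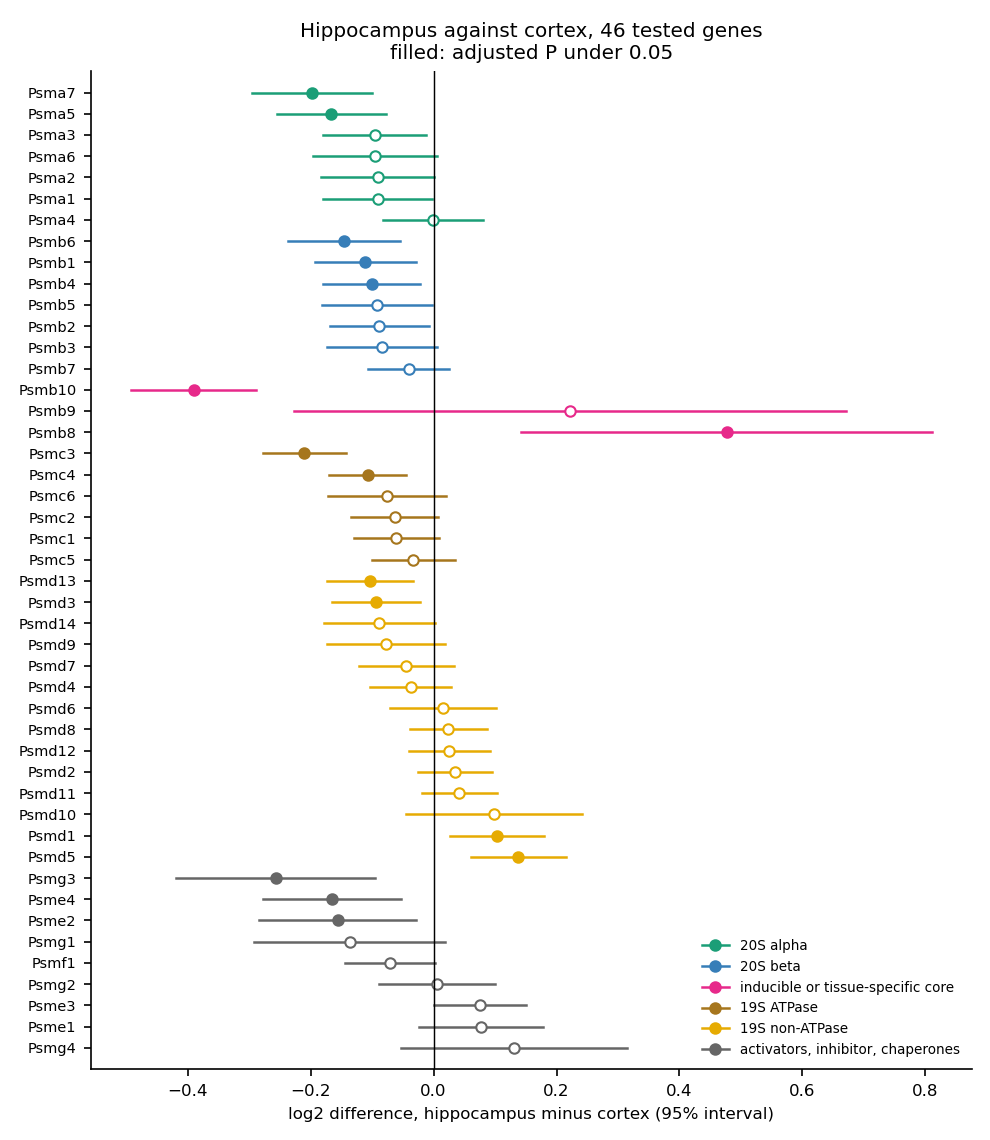
Log2 difference, hippocampus minus cortex, of the 46 tested proteasome genes with 95% intervals (edgeR, 20 libraries), by class and colored as in the legend. Filled points, 3 to the right and 13 to the left of 0, have an adjusted P under 0.05, and Psmb10 and Psmb8 are the outermost of them.

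Among the inducible genes, Psmb10 and Psmb8 stood at the 2 ends. Psmb10 had 28.3, 31.3, 29.6, 33.7 and 30.2 CPM in WT hippocampus (mice 1 to 5) and 36.6, 43.1, 37.3, 40.6 and 40.0 CPM in the cortex of the same mice. In Ube3aOE mice 6 to 10 it had 28.9, 33.4, 26.8, 31.0 and 30.0 CPM in hippocampus and 42.5, 41.2, 36.0, 38.0 and 42.2 CPM in cortex. Every cortex library lay above every hippocampus library, and the log2 difference was -0.39 (95% interval -0.49 to -0.29, adjusted P = 1.22e-06). Within WT it was -0.37 (adjusted P = 0.000281) and within Ube3aOE -0.41 (adjusted P = 0.00013).

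Psmb8, the inducible counterpart of Psmb5, went the other way, at a level of 9 to 41 reads per library. It had 2.40, 1.78, 1.48, 2.07 and 2.08 CPM in WT hippocampus and 0.957, 0.673, 1.49, 1.22 and 1.62 CPM in WT cortex. In Ube3aOE mice it had 2.32, 2.05, 1.48, 1.54 and 1.38 CPM in hippocampus and 1.08, 1.42, 1.73, 1.83 and 1.33 CPM in cortex. Hippocampus was the higher tissue in 7 of 10 mice and the groups overlapped. The difference was 0.48 (95% interval 0.14 to 0.81, adjusted P = 0.0173), and the call was lost without WT mouse 1 (0.41, adjusted P = 0.0595), without Ube3aOE mouse 6 (0.37, adjusted P = 0.0702) and without mice 2, 4, 7, 9 and 10 (0.50, adjusted P = 0.139). Within WT it was 0.71 (adjusted P = 0.019) and within Ube3aOE 0.24 (adjusted P = 0.437). The mouse as a block gave an adjusted P of 0.0347 for Psmb8 over both genotypes (edgeR). Psmb9, with 4 to 21 reads per library, was at 0.853 ± 0.265 CPM in WT and 0.707 ± 0.266 CPM in Ube3aOE hippocampus and at 0.553 ± 0.193 and 0.799 ± 0.140 CPM in cortex, a region difference of 0.22 (95% interval -0.23 to 0.67, adjusted P = 0.413).

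The share of each inducible gene in its pair, taken per kb, differed by far more between the pairs than between tissues. Psmb10 made up 32.5% ± 1.74 of Psmb10 plus Psmb7 in WT hippocampus, 32.7% ± 1.86 in Ube3aOE hippocampus, 37.8% ± 0.947 in WT cortex and 38.5% ± 2.53 in Ube3aOE cortex. Psmb8 made up 2.096% ± 0.401, 2.07% ± 0.358, 1.25% ± 0.394 and 1.61% ± 0.406 of Psmb8 plus Psmb5 in the same order, and Psmb9 0.488% ± 0.146, 0.437% ± 0.147, 0.300% ± 0.108 and 0.431% ± 0.0594 of Psmb9 plus Psmb6. Psmb7 itself had a region difference of -0.04 (adjusted P = 0.302), and Psmb5 of -0.09 (adjusted P = 0.082). The mouse as a block gave an adjusted P of 0.272 for Psmb7 and 0.0163 for Psmb5 (edgeR). Without division by length Psmb10's mean share over the 20 libraries was 17.8% in place of 35.4%, so the size of the share rests on the transcript lengths.

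**Figure D3:**
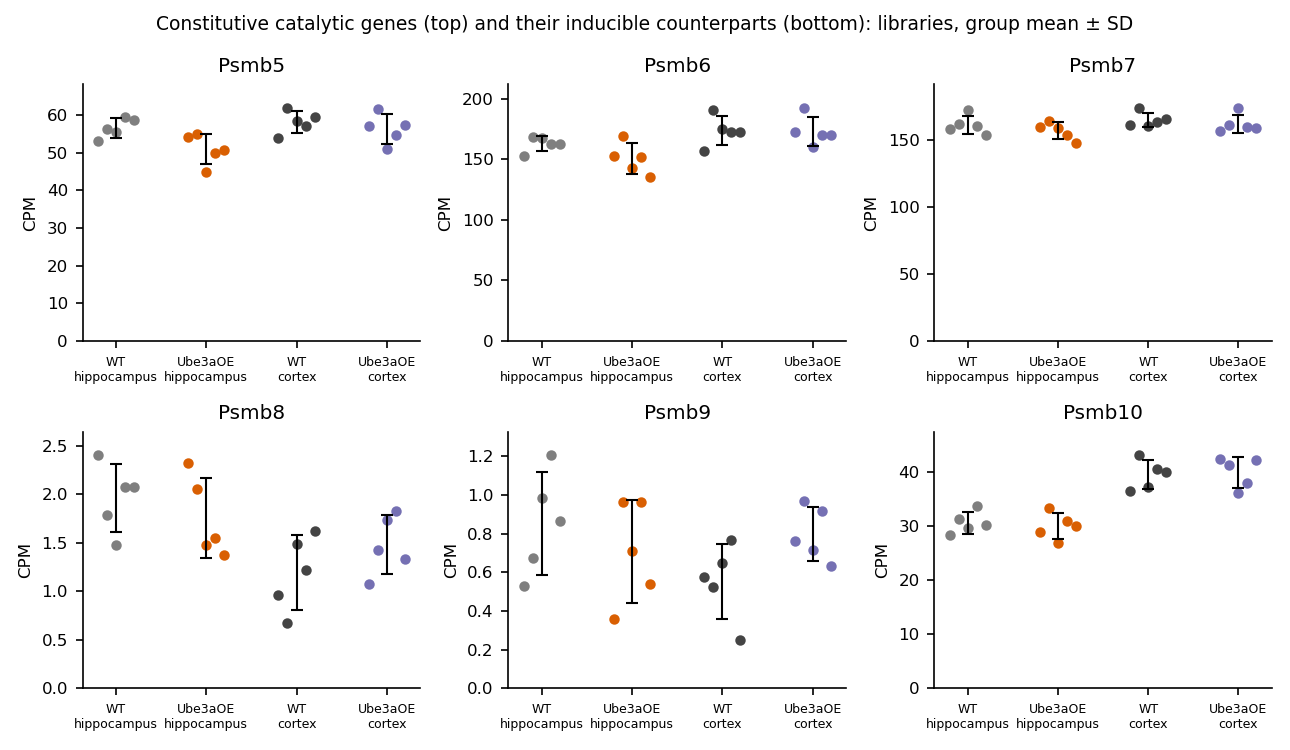
CPM of the constitutive catalytic genes Psmb5, Psmb6 and Psmb7 (top) and of their inducible counterparts Psmb8, Psmb9 and Psmb10 (bottom) in each library, with the mean ± SD of the 5 libraries of a group and each axis starting at 0. Psmb10 is separated by tissue (26.8 to 33.7 CPM in hippocampus, 36.0 to 43.1 CPM in cortex), and Psmb8 and Psmb9 stay below 3 CPM.

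All 14 constitutive core genes had a value below 0, with a median of -0.09. Of these, 5 were called lower: Psma7 at -0.20 (adjusted P = 0.00139), Psma5 at -0.17 (adjusted P = 0.00281), Psmb6 at -0.15 (adjusted P = 0.0084), Psmb1 at -0.11 (adjusted P = 0.0234) and Psmb4 at -0.10 (adjusted P = 0.0307). With the mouse as a block 11 of the 14 were called lower. Psma7 was lower in hippocampus in 10 of 10 mice: WT mice had 133, 143, 154, 148 and 145 CPM in hippocampus and 145, 172, 160.0, 162 and 159.7 CPM in cortex, and Ube3aOE mice 139, 150.3, 124, 127 and 114 against 154, 171, 147, 157 and 151 CPM. Psmb6 was also lower in 10 of 10 mice and Psma5 in 9 of 10. In the fit that ignores the pairing, Psmb4 lost its call without WT mouse 2, 3 or 5 or Ube3aOE mouse 8, 9 or 10 (adjusted P = 0.0516 to 0.104). Psmb1 lost its call there without WT mouse 2 or 4 or Ube3aOE mouse 8, 9 or 10 (adjusted P = 0.0533 to 0.0706). The mouse as a block, with no mouse left out, gave an adjusted P of 0.00795 for Psmb4 and 0.0124 for Psmb1 (edgeR). Mice were not left out of the block fit. With library totals only, the median of the 14 genes was -0.03 where that of all genes was 0.05. The smallest of the 14 differences were those of Psma4 (-0.0010) and Psmb7 (-0.04).

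In the cap, Psmc3 stood out among the ATPases. WT mice had 164, 186, 175, 165 and 175 CPM of Psmc3 in hippocampus and 198, 216, 192, 199.5 and 199 CPM in cortex, and Ube3aOE mice had 163, 167, 158, 162 and 162 CPM and 185, 195, 176, 193 and 185 CPM. It was lower in hippocampus in 10 of 10 mice, and the tissues overlapped only through the hippocampus of WT mouse 2, which lay above 3 Ube3aOE cortex libraries. The difference was -0.21 (95% interval -0.28 to -0.14, adjusted P = 1.73e-05), -0.22 within WT (adjusted P = 0.000869) and -0.20 within Ube3aOE (adjusted P = 0.00201). Psmc4 was called lower (-0.11, adjusted P = 0.00565), and all 6 ATPase genes had values below 0.

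The non-ATPase genes were split, with 8 of 14 above 0 and a median of 0.02. Psmd5, the assembly chaperone, was higher in hippocampus (0.14, adjusted P = 0.00392), with 63.7, 70.1, 67.9, 66.4 and 63.2 CPM in WT hippocampus against 58.1, 68.6, 60.4, 61.7 and 60.4 CPM in cortex and 63.3, 65.8, 68.7, 68.0 and 71.8 against 56.5, 58.2, 62.0, 62.1 and 59.9 CPM in Ube3aOE mice. All 10 mice had more in hippocampus, although the tissues overlapped through the cortex of WT mouse 2. Psmd1, the other large scaffold, was called higher as well (0.10, adjusted P = 0.0229, and 0.0612 without Ube3aOE mouse 6). The lid subunits Psmd13 (-0.10, adjusted P = 0.0146) and Psmd3 (-0.09, adjusted P = 0.0281) were called lower. Psmd13 lost its call without Ube3aOE mouse 9 (adjusted P = 0.0607), and Psmd3 without WT mouse 1 or 2 or Ube3aOE mouse 6 or 9 (adjusted P = 0.0538 to 0.108). The mouse as a block, with no mouse left out, gave an adjusted P of 0.00821 for Psmd13, 0.0142 for Psmd3 and 0.0115 for Psmd1 (edgeR). Psmd2 was at 0.04 ± 0.03 (SE, adjusted P = 0.332).

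Of the activators, Psme4 (-0.17, adjusted P = 0.0147) and Psme2 (-0.16, adjusted P = 0.0392) were called lower in hippocampus, while Psme1, the partner of Psme2 in the same ring, was at 0.08 (adjusted P = 0.197) and Psme3 at 0.07 (adjusted P = 0.0891). Psme4 was at -0.05 (adjusted P = 0.385) once a trend on transcript length and GC was removed, and without WT mouse 1 or 4 or Ube3aOE mouse 10 the adjusted P was 0.0509 to 0.0699. Psme2 was at 33.0 CPM in the cortex of WT mouse 2 and at 22.9 to 23.97 CPM in that of the other WT mice. Its call was lost without WT mouse 1, 2 or 4 or any of the 5 Ube3aOE mice (adjusted P = 0.054 to 0.0812). The mouse as a block gave an adjusted P of 0.0168 for Psme2, 0.0324 for Psme4, 0.0363 for Psme3 and 0.132 for Psme1 (edgeR). Psmg3, a core assembly chaperone, was called lower (-0.26, adjusted P = 0.00913), with 9.93 to 11.7 CPM in WT and 7.62 to 12.6 CPM in Ube3aOE hippocampus against 11.0 to 13.2 and 11.2 to 14.5 CPM in cortex. Psmg1 at -0.14 (adjusted P = 0.136), Psmg2 at 0.01 (adjusted P = 0.933), Psmg4 at 0.13 (adjusted P = 0.227) and the inhibitor Psmf1 at -0.07 (adjusted P = 0.101) did not pass the test.

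Within the genotypes, taken from the fit that ignores the pairing, WT had 1 member higher and 2 lower in hippocampus and Ube3aOE 1 and 10, where 37.1% and 33.2% of all genes were called either way. Counts within a genotype with the mouse as a block are not given here. The 10 called lower in Ube3aOE mice were Psma2, Psma5, Psma7, Psmb1, Psmb4, Psmb6, Psmb10, Psmc3, Psmc4 and Psmg3. Whether the genotypes differ in this was tested by the interaction given below.

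In bulk tissue, fewer cells of a type and less RNA per cell cannot be told apart, and the makeup of the tissues differed. The 8 microglia markers summed to 149 to 238 CPM in WT and 184 to 218 CPM in Ube3aOE hippocampus and to 127 to 178 and 128 to 191 CPM in cortex, and 6 of 8 were called higher in hippocampus. The 6 markers of dividing cells were all called higher in hippocampus (53.6 to 77.4 CPM against 33.8 to 42.9 CPM). Of astrocyte markers 4 of 5 were called higher (1129 to 1557 CPM against 776 to 1044 CPM), of oligodendrocyte lineage markers 4 of 6 (383 to 607 CPM against 341 to 478 CPM), of choroid plexus markers 4 of 5 tested, of thalamus and habenula markers 2 of 3 tested and of striatum markers 1 of 4, with 2 lower. No endothelial marker of 7 was called, and 1 of 5 markers of meninges and mural cells was lower. No marker was at 0 in all libraries. The part of these cells in the members' differences was not tested.

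Genes that work beside the proteasome were read against the same background, 50.9% of all genes called. Of 22 tested partners and regulators, 6 were called higher in hippocampus and 3 lower. Nfe2l2, which encodes the stress-responsive transcription factor NRF2, was at 0.46 (adjusted P = 0.00215) and Nfe2l1, whose product drives proteasome genes when the proteasome is inhibited, at 0.23 (adjusted P = 0.000211). Fbxo7, a binding partner of the inhibitor PI31, was at 0.26, the shuttle factors Ubqln2 and Ubqln1 at 0.14 and 0.11, and the proteasome-bound ligase Ube3c at 0.09. The lower ones were Akirin2 (-0.16), required for nuclear import of proteasomes, Ubqln4 (-0.15) and Txnl1 (-0.12), a thioredoxin-like protein of the cap. Among the ubiquitin and E1 enzyme genes 0 of 6 were higher and 2 lower, Rps27a at -0.21 and Ubb at -0.14. Of the 9 antigen processing and interferon genes, 6 were higher, among them Tap1 at 1.18 (adjusted P = 2.11e-08), Tap2 at 0.66, Irf1 at 0.58, Tapbp at 0.38 and H2-K1 at 0.34. H2-D1 was lower at -0.21.

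Between the genotypes in hippocampus no member passed an adjusted P under 0.05 (0 of 46, edgeR, DESeq2 and limma alike), and 0.00657% of the 15220 genes tested did, which is 1 gene. At an unadjusted P under 0.05 there were 10 members (21.7%), all lower in Ube3aOE, against 7.21% of all genes in either direction. By direction, 533 of the 15220 genes were lower and 565 higher at that P. Of 10080 genes at 10 CPM or more, 452 were lower and 348 higher. The members lay to the same side: 40 of 46 had a value below 0, against 49.3% of all genes, with a median of -0.10 where all genes had 0.00. The 14 constitutive core genes had a median of -0.14 and all were below 0, 7 of them with an unadjusted P under 0.05. The 20 cap genes, those of the cap assembly chaperones included, had a median of -0.07, with 18 below 0 and 2 with such a P. The genes of a class vary together between mice, as the correlations above show, so these counts are not those of independent genes.

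By the 5 smallest P values, the members were Psmb4, Psma2, Psma5, Psmg2 and Psmb2. Psma2 had 116, 123, 128, 109 and 114 CPM in WT hippocampus (mice 1 to 5) and 105, 115, 107, 102 and 93.2 CPM in Ube3aOE hippocampus (mice 6 to 10), a log2 difference of -0.18 ± 0.07 (SE, edgeR adjusted P = 0.668). Psmb4 had 178, 180.3, 189, 183 and 178 CPM against 173, 179, 152, 159 and 154 CPM (-0.16 ± 0.06, adjusted P = 0.668). In both genes Ube3aOE mouse 7 lay within the WT range and the other 4 Ube3aOE mice below it.

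Psma5 had 72.0, 78.9, 74.9, 72.9 and 70.5 CPM in WT and 71.6, 69.5, 66.1, 62.3 and 58.3 CPM in Ube3aOE hippocampus (-0.17 ± 0.07, adjusted P = 0.668). Psmb2 had 99.9, 117, 112, 101 and 106 CPM against 99.1, 105, 92.5, 94.4 and 90.2 CPM (-0.16 ± 0.06, adjusted P = 0.668). Psmg2 had 24.4, 21.4, 24.04, 22.3 and 23.8 CPM against 20.4, 22.2, 19.9, 19.3 and 20.7 CPM (-0.18 ± 0.07, adjusted P = 0.668). In each, 1 Ube3aOE library lay within the WT range, mouse 6 for Psma5 and mouse 7 for Psmb2 and Psmg2.

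The members on the other side of 0 were the activators Psme1 at 0.11 ± 0.06 (SE) and Psme4 at 0.08 ± 0.07, the inhibitor Psmf1 at 0.08 ± 0.05, the chaperone Psmg1 at 0.08 ± 0.10, Psmd5 at 0.03 ± 0.05 and Psmd2 at 0.01. None had an unadjusted P under 0.05. Psme3 was at -0.05 ± 0.05, Psme2 at -0.05 ± 0.07, Psmg3 at -0.05 ± 0.12 and Psmg4 at -0.17 ± 0.14. Of the catalytic genes, Psmb5 was at -0.15 ± 0.07, Psmb6 at -0.12 ± 0.06 and Psmb7 at -0.04 ± 0.05, and of the inducible ones Psmb8 at -0.16 ± 0.21, Psmb9 at -0.28 ± 0.32 and Psmb10 at -0.03 ± 0.07. For 44 of the 46 members the 95% interval lay within 0.5 of 0, so a change past that border was outside their intervals. The exceptions were Psmb8 and Psmb9.

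**Figure D4:**
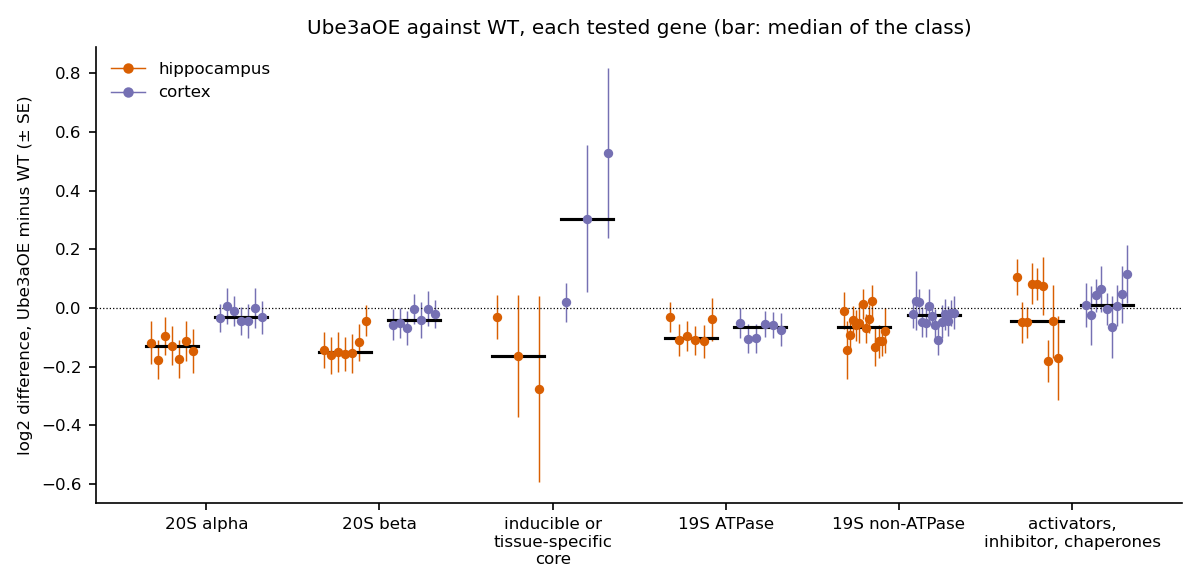
Log2 difference, Ube3aOE minus WT, of each tested proteasome gene (points, ± SE, edgeR) in hippocampus and cortex by class, with the median of the class as a bar. In hippocampus all constitutive alpha and beta genes lie below 0, with a median of -0.14, and in cortex their median is -0.03.

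The core genes were below the WT range in 4 of the 5 Ube3aOE mice. Relative to the WT mean of hippocampus, the median over the 14 constitutive core genes was -0.07 in mouse 6, -0.0036 in mouse 7, -0.17 in mouse 8, -0.18 in mouse 9 and -0.26 in mouse 10, and -0.03, 0.05, 0.06, -0.03 and -0.04 in WT mice 1 to 5. Summed, these genes took 1677, 1805, 1815, 1700 and 1698 CPM in WT mice 1 to 5 and 1635, 1742, 1586, 1550 and 1449 CPM in mice 6 to 10. Mouse 7 lay within the WT range and the other 4 below it. In the same hippocampus libraries the choroid plexus markers were highest in mouse 7, those of striatum in mouse 9 and those of thalamus and habenula in mouse 10, and the part of these tissues in the members' values was not tested. Without mice 2, 4, 7, 9 and 10 the median of the core genes was -0.13, with a trend on length and GC removed -0.11, and with 1 mouse left out -0.18 to -0.11.

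**Figure D5:**
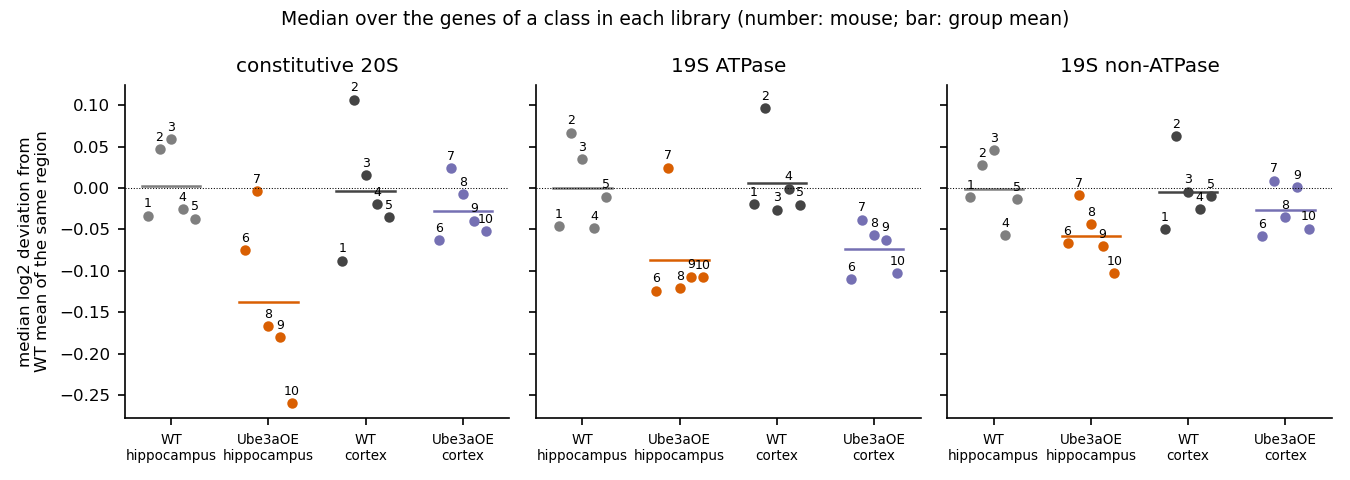
Median log2 deviation of the genes of a class from the WT mean of the same tissue, in each of the 20 libraries (points, numbered by mouse) with the group mean as a bar, for 14 constitutive core genes, 6 ATPase genes and 14 non-ATPase genes. The core genes of mouse 10 reach -0.26 in hippocampus, and the cortex of WT mouse 2 is the highest library in all 3 panels.

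In cortex no member passed either (0 of 46, edgeR, DESeq2 and limma), where 0.00669% of the 14947 genes tested did, again 1 gene. At an unadjusted P under 0.05 there was 1 member, Psmd4, against 4.44% of all genes. The members' median was -0.02 (0.0043 with library totals only), with 33 of 46 below 0 against 48.6% of all genes, and the 14 core genes had a median of -0.03. With 1 mouse left out the members' median ran from -0.0378 (without WT mouse 1) to -0.00826 (without WT mouse 2), and it was -0.0097 without Ube3aOE mouse 6 and -0.0357 without Ube3aOE mouse 8. Psmd4, a ubiquitin receptor of the cap, had 122, 126, 122, 123 and 113 CPM in WT cortex and 112, 120.0, 113, 111 and 105 CPM in Ube3aOE cortex (-0.11 ± 0.05, edgeR adjusted P = 0.96). The groups overlapped at the lowest WT library, mouse 5.

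The next 4 by P were Psmc3 (-0.10 ± 0.05, adjusted P = 0.96), Psmc2 (-0.10 ± 0.05, adjusted P = 0.96), Psmb9 (0.53 ± 0.29, adjusted P = 0.96) and Psmc6 (-0.07 ± 0.06, adjusted P = 0.96). Psmc2 had 144, 159.5, 138, 141 and 148 CPM in WT and 130.2, 137, 139, 139 and 134 CPM in Ube3aOE cortex. Psmb9 had 0.574, 0.523, 0.648, 0.769 and 0.249 CPM in WT and 0.762, 0.969, 0.716, 0.915 and 0.633 CPM in Ube3aOE cortex, and the groups overlapped. Tap1, which overlaps Psmb9 on the opposite strand and shares 4.19% of its stretches, so that reads of the overlap cannot be told apart if strand was not used in counting, was at 0.47 ± 0.17 in the same comparison (adjusted P = 0.96), a gene named after its values were seen. All 6 ATPase genes had values below 0, with a median of -0.07, which with the libraries' own values runs from -0.11 in mouse 6 to -0.04 in mouse 7. The cortex library of WT mouse 2 was the highest of the WT cortices in all 3 classes, at 0.11, 0.10 and 0.06, and was the library with the lowest share of reads on genes (69.7%) and the highest share not aligned (8.66%).

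Tested in each tissue were 22 partners and regulators, 6 ubiquitin and E1 enzyme genes and 8 antigen processing and interferon genes. Of them, 0 were called between the genotypes in either tissue. In hippocampus 6 of them had an unadjusted P under 0.05, where 7.21% of all genes did. Each of the 6 had an adjusted P of 0.668 (edgeR). Uchl5, a deubiquitinase of the cap, was at -0.17 ± 0.06 (SE), Pomp, the core assembly factor, at -0.16 ± 0.07, Shfm1, a small cap subunit, at -0.19 ± 0.08, and the ubiquitin gene Rps27a at -0.18 ± 0.08. Nfe2l1 was at 0.15 ± 0.07 and AI314180, the gene of the proteasome adaptor ECM29, at 0.18 ± 0.08. In cortex Tap1 alone had an unadjusted P under 0.05, where 4.44% of all genes did.

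The genotype difference was not shown to differ between the tissues. The interaction called 0 of 46 members and 0% of 15661 genes, and 0 members had an unadjusted P under 0.05 where 3.77% of all genes did (edgeR, and 0 called by DESeq2 and limma). The smallest P values were those of Psmg2 (-0.18 ± 0.09, adjusted P = 0.997), Psma2 (-0.18 ± 0.09, adjusted P = 0.997) and Psmb4 (-0.15 ± 0.08, adjusted P = 0.997). The members' median was -0.07 (-0.0459 without Ube3aOE mouse 10). All 14 core genes were below 0, with a median of -0.11, and the 20 cap genes had a median of -0.0050. The interaction uses the same libraries as the genotype comparisons, so its values are not independent of theirs. For 43 of the 46 members the 95% interval of the interaction lay within 0.5 of 0. All of these values come from the fit that ignores the pairing of tissues by mouse. With the mouse as a block no member was called either, and the SEs, intervals and unadjusted P values of that fit are not given here.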

How the data were processed

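The authors deposited 1 table of raw read counts per gene for each of the 20 libraries. Their processing notes name HISAT2 2.1.0, HTSeq 0.11.2 and the builds GRCm38 and mm10. Counting settings, strand included, are not given in the sources used here. The 5 lines of reads not counted on a gene were left out.

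Groups and mouse numbers came from the labels. A number marks 1 animal, which pairs its 2 tissues, and log2 CPM deviations of its 2 libraries correlated across 10081 genes with a median r of 0.314 (0.0945 to 0.515). Counts were tested in R 4.3.3 with edgeR 4.0.16 (TMM, filterByExpr, robust quasi-likelihood F test) over all genes that passed the filter, with Benjamini-Hochberg adjustment and a threshold of 0.05. The genotypes were compared within each tissue (5 against 5 mice), and region and interaction over all 20 libraries. The pairing of tissues by mouse was not used there, except where the mouse is named as a block. Lengths and positions came from GENCODE M21 (GRCm38.p6), promoters from RefSeq. The fits were run on simulated data with each library drawn independently, which cannot show the effect of ignoring the pairing. Intervals cover the spread between mice.

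Members, lists and tests were chosen with earlier results of these data known. Named were the catalytic and inducible genes, Psma8, Psmb11, Psme, Psmf and Psmg genes, the largest called region differences (up to 8 per direction), the 5 smallest P values per genotype comparison, the 5 highest and lowest per length, called pathway genes and Ube3a. Members outside this rule, such as Psmb1, Psmc4, Psmd3, Psmd9, Psmd11 and Psmd13, were named after their values were seen. Alternatives were DESeq2 1.42.0, limma 3.58.1 voom, other scalings, no filter, labelled sex, a length and GC trend, the mouse as a block, a joint fit and each mouse left out. Because Xist and Y-linked genes went against the label in WT mice 3 and 5, labelled sex cannot properly adjust for sex.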

Additional observations from a re-analysis of the deposited data

Results flagged for a closer look

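In each group of 5 libraries the gap between the outermost value and its neighbor was compared with the group's range, for 31 named genes and 3 summed classes. Of 136 such groups 10 held a value apart from the rest (a gap above 0.71 of the range), where chance alone gives about 1 in 20, or 6.8. The cortex library of WT mouse 2 accounted for 5 of them. It was highest for Psme1 (77.8 CPM, next 66.6), Psme2 (33.0 CPM, next 23.97), the summed 19S ATPase genes (971 CPM, next 898) and the summed 19S non-ATPase genes (1836 CPM, next 1726), and lowest for Psme4 (58.6 CPM, next 71.5). The hippocampus library of the same mouse was at 0 CPM for Psma8 (next 0.462).

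Each of the other 4 values stood in a library of its own. Psmg4 was lowest in the cortex of WT mouse 1 (9.19 CPM, next 11.2), Psmd10 in the hippocampus of Ube3aOE mouse 10 (12.1 CPM, next 15.3). Psmb7 was highest in the cortex of Ube3aOE mouse 8 (174 CPM, next 162) and Psme3 in its hippocampus (120.2 CPM, next 109.9). The cause of these values was not tested.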

How the results depend on the processing

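No member was called between the genotypes or in the interaction under any of the alternatives, and the medians of those comparisons moved by less than the spread between mice. Only the counts and levels named here changed by more than that. In the region comparison, members called higher in hippocampus numbered 3, and 8 with library totals only, 5 with the length and GC trend removed and 6 with the replicate block and that trend removed. Members called lower numbered 13, and 5 with library totals only, 8 with upper-quartile factors, 8 with low counts unfiltered and 21 with the mouse as a replicate block. Without mice 2, 4, 7, 9 and 10, an alternative chosen after seeing the data, 0 were higher and 3 lower. With 1 mouse left out they ranged from 1 to 4 and from 8 to 15. Apart from the mouse as a block alone, the share of all genes called under these alternatives is not given here. With library totals only the members' median region difference was -0.0166 and that of the constitutive core genes -0.0341. The causes were not tested. The block changed no other count over all 46 members by over 1.5 times. Of the 14 constitutive core genes, 5 were called lower without it and 11 with it. Of 320 values for 16 genes named for the region, 64 lost their call and 0 changed sign, while Psmb10, Psmc3 and Psmg3 kept theirs under all 20 alternatives. Transcript length set levels: on the longest transcript the core genes' median was 81.6 CPM per kb (126.6 on the median one). The mean share of Psmb8 was 1.75% per kb, 1.35% on the longest transcript and 2.81% without length, that of Psmb9 0.414% and 0.148% on the longest, that of Psmb10 35.4%, 31.9% on the longest and 17.8% without length, where the longest transcript was added for the shares after seeing the data. Psmb8, Psmb9, Psma8 and Psmb11, with at most 41 reads per library, are the members that depth limits.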
